A study of Mus musculus with 9 samples.

Results

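The SLC25 mitochondrial carriers were followed in mouse liver as the 47 entries of a gene count table whose symbol is Slc25a followed by a number, of 35275 entries in all. Of these 47 members, 46 had a count in at least 1 library and 42 passed the filter on low counts and were tested. Slc25a54 was at 0 in every library, and 4 more members were too low to test: Slc25a2, an ornithine carrier, with 37 counts over all 9 libraries, Slc25a43 with 16, Slc25a31, the ADP/ATP carrier of the testis, with 8, and Slc25a41 with 4. A count of 0 allows a level of up to 0.076 to 0.215 CPM (counts scaled to a common library size), the worth of 3 counts. This floor is scaled by library totals alone, without the TMM scaling used for the CPM values below.

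Total RNA was sequenced from liver of C57BL/6 mice in 3 groups of 3 libraries: vehicle (PBS), AdipoRon, a small molecule that activates the adiponectin receptors, and AdipoRonPEG5, an analog of it that carries polyethylene glycol. Injections were given 2 times a day over 5 days. A dose of 5 mg/kg is stated in words that cover PBS as well as the compounds, which leaves the dose of the compounds uncertain. The labels give no genotype, sex, age or diet for these mice, and do not say that the libraries of a group came from separate animals. P-values therefore measure the spread between these libraries, which may be technical.

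The inner mitochondrial membrane lets few metabolites pass unaided. Carriers of the SLC25 family, which are encoded in the nucleus and imported into that membrane, exchange or cotransport nucleotides, phosphate, amino acids, carboxylates, cofactors and metals between cytosol and matrix. In hepatocytes they link the mitochondrial and cytosolic steps of the urea cycle, export citrate for lipid synthesis, bring acylcarnitines to fatty acid oxidation and exchange ATP for ADP.

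Vehicle 1 held 39473195 counts and the other 8 libraries 13942322 to 18508950, and the 47 members together took 0.389% to 0.453% of the counts of a library. Their summed level was 4396 ± 174 CPM in the vehicle libraries, 4210 ± 148 CPM in those of AdipoRon and 4301 ± 195 CPM in those of AdipoRonPEG5 (SD, n = 3). CPM are scaled by TMM, which sets the libraries to a common level over most genes. The 6 hepatocyte markers summed to 62249 to 83602 CPM, so the libraries carried the labelled tissue. Vehicle 3 and AdipoRonPEG5 1 stood apart in Saa1, an acute phase gene chosen after its values were seen, at 4959 and 1952 CPM against 45.1 to 497 CPM in the other 7 libraries. Transcripts of mitochondrially encoded genes took 3.85% to 4.60% of counts in vehicle, 4.32% to 4.64% in AdipoRon and 4.67% to 5.29% in AdipoRonPEG5 libraries. The part of that share in the results was not tested.

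Compared per kilobase of the gene length in the table, a few carriers made up most of the family's mRNA. The 6 highest members of vehicle liver held 66.4% of the members' summed CPM per kilobase. Slc25a47, a carrier found mainly in liver, was highest at 465 ± 34.9 CPM per kilobase (SD, n = 3), followed by the ADP/ATP carrier Slc25a5 (ANT2) at 360 ± 44.3 and the glutathione carrier Slc25a39 at 228 ± 13.9 CPM per kilobase. The citrate carrier Slc25a1 at 125 ± 6.18, the dicarboxylate carrier Slc25a10 at 103 ± 18.1 and the ornithine/citrulline carrier Slc25a15 at 90.1 ± 9.19 CPM per kilobase came next. Slc25a1 and Slc25a10 lay within their summed SDs of each other, as did Slc25a10 and Slc25a15. Slc25a24, an ATP-Mg/phosphate carrier, was the lowest tested member at 0.190 ± 0.0436 CPM per kilobase.

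**Figure D1:**
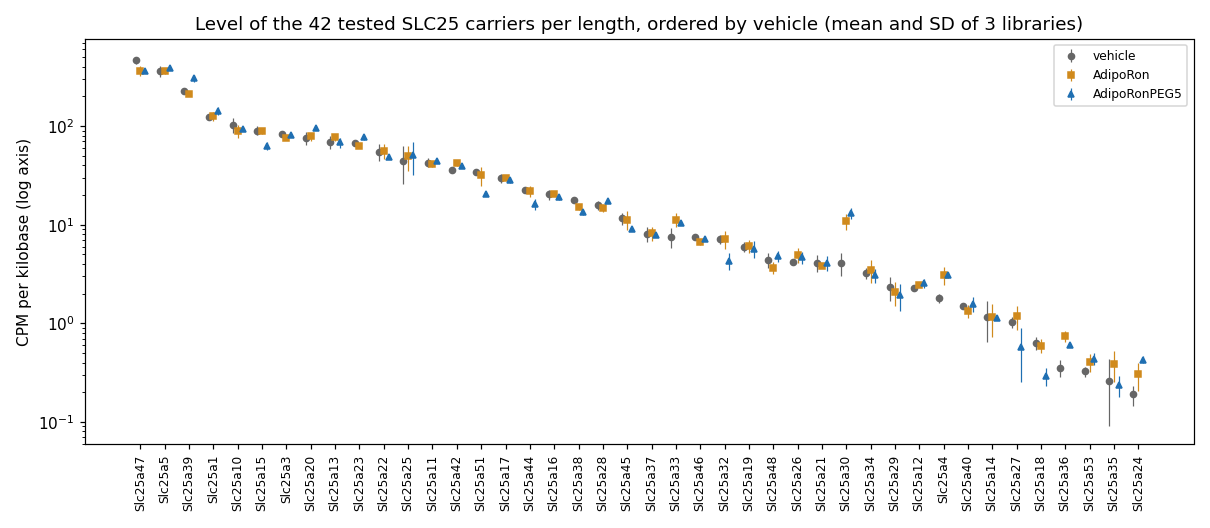
Level of each of the 42 tested SLC25 carriers in CPM per kilobase (log axis), in order of the vehicle mean, with points at the mean and bars for the SD of 3 libraries in vehicle, AdipoRon and AdipoRonPEG5. Levels run from 465 CPM per kilobase for Slc25a47 to 0.190 for Slc25a24 in vehicle, and Slc25a30 stands out of the order in both treated groups.

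Paralogs shared their level unequally. Of the summed CPM per kilobase of the ADP/ATP carriers Slc25a4 (ANT1) and Slc25a5, Slc25a4 made up 0.501 ± 0.0277% in vehicle, 0.841 ± 0.123% in AdipoRon and 0.791 ± 0.0583% in AdipoRonPEG5 livers (SD, n = 3). Of the aspartate/glutamate carriers Slc25a12 and Slc25a13, Slc25a12 made up 3.29 ± 0.541%, 3.09 ± 0.243% and 3.61 ± 0.0671%. Of the mitochondrial iron importers, Slc25a28 (mitoferrin 2) made up 66.0 ± 5.16% of its sum with Slc25a37 (mitoferrin 1) in vehicle, 64.1 ± 5.58% in AdipoRon and 68.5 ± 1.10% in AdipoRonPEG5 livers. The liver forms thus held nearly all of the first 2 pairs, while the iron importers were closer to balance.

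With AdipoRonPEG5 against vehicle, 5 of the 42 tested members rose and 6 fell, which is 26.2% of them, beside 2260 of all 13151 tested genes (17.2%). By direction, 9.55% of all tested genes rose and 7.63% fell. The members' median log2 fold change was -0.015 and their median absolute change 0.18, against -0.0013 and 0.21 over all genes tested. The members that rose were Slc25a30, Slc25a24, Slc25a4, Slc25a36 and Slc25a39, and those that fell were Slc25a51, Slc25a32, Slc25a15, Slc25a44, Slc25a38 and Slc25a47. Calls use a Benjamini-Hochberg (BH) adjusted p of 0.05 over all genes tested, from edgeR's quasi-likelihood fit of all 9 libraries. In whole liver, fewer cells of a type and less RNA per cell cannot be told apart.

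Markers of some other cells moved with the treatments. The 10 macrophage and Kupffer cell markers, none at 0 in all libraries, summed to 187 to 271 CPM in the vehicle libraries, 446 to 790 CPM in those of AdipoRon and 692 to 726 CPM in those of AdipoRonPEG5. All 10 rose with AdipoRonPEG5 and 9 with AdipoRon, beside 9.55% and 3.8% of all tested genes. The 6 lymphocyte markers summed to 0.595 to 1.29 CPM in the vehicle libraries and 2.67 to 4.26 CPM in those of AdipoRon. In those of AdipoRonPEG5 they summed to 4.05 to 5.37 CPM. Of 4 tested lymphocyte markers, 3 rose with AdipoRonPEG5 and 2 with AdipoRon, beside the same shares of all tested genes. The macrophage and lymphocyte sums moved in the same direction as Slc25a30, Slc25a36, Slc25a4, Slc25a24 and Ucp2, and their part in those results was not tested. The 6 stellate cell markers summed to 58.3 to 75.5 CPM in the vehicle libraries and 75.2 to 91.3 CPM in those of AdipoRon. In those of AdipoRonPEG5 they summed to 79.5 to 102 CPM, above vehicle. Of these 6, edgeR called 0 with either compound, beside 17.2% of all tested genes with AdipoRonPEG5 and 5.2% with AdipoRon. With AdipoRonPEG5 DESeq2 called 1 higher and limma-voom 2, and 5 were higher at an unadjusted p under 0.05. The 5 adipocyte markers, of which Lep was at 0 throughout, summed to 5.95 to 11.7 CPM in vehicle and 4.94 to 10.9 CPM in AdipoRon libraries. In those of AdipoRonPEG5 they summed to 2.90 to 4.36 CPM, below vehicle. Only 2 of them were tested, with log2 fold changes of -4.12 and -0.52 with AdipoRonPEG5. EdgeR and DESeq2 called 1 of these lower and limma-voom 0, beside 7.63% of all tested genes called lower by edgeR. Endothelial sums overlapped between the groups, at 68.3 to 76.2, 69.0 to 87.5 and 74.3 to 84.8 CPM. The 4 cholangiocyte markers summed to 6.92 to 8.85, 9.63 to 10.8 and 7.77 to 9.66 CPM.

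The 6 hepatocyte markers summed to 71212 to 83602 CPM in the vehicle libraries, 62249 to 71115 CPM in those of AdipoRon and 69929 to 77957 CPM in those of AdipoRonPEG5. With AdipoRonPEG5 2 of the 6 fell, beside 7.63% of all tested genes: Apoa1 (log2 fold change -0.65, edgeR BH-adjusted p = 0.0155) and Serpina1c (-0.66, edgeR BH-adjusted p = 0.016), named after their values were seen. DESeq2 and limma-voom called 2 of the 6 lower as well. The call of Apoa1 was lost without AdipoRonPEG5 1, AdipoRonPEG5 2, or vehicle 3 and AdipoRonPEG5 1 together (edgeR BH-adjusted p = 0.0605 to 0.0656), and that of Serpina1c without vehicle 2 (0.065). With AdipoRon 0 of the 6 were called by edgeR, beside 5.2% of all tested genes, and 0 by limma-voom. DESeq2 and an unadjusted p under 0.05 each gave 3 lower. The other 4 hepatocyte markers were not called with AdipoRonPEG5, and log2 fold changes of the 6 ran from -0.66 to 0.052. The hepatocyte sum of AdipoRonPEG5 overlapped vehicle. That of AdipoRon lay below vehicle by a narrow margin, at most 71115 CPM against at least 71212 CPM. Apoa1 and Serpina1c moved in the same direction as the 6 carriers that fell with AdipoRonPEG5, and so did the adipocyte sum. The part of these markers in those results was not tested.

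Promoters are shown for 5 of the 11 called carriers. Of these 5, Slc25a30, Slc25a36, Slc25a4 and Slc25a39 rose with AdipoRonPEG5 and Slc25a38 fell. Those of the other called carriers, among them Slc25a24, which also rose, are not shown. The promoter of Slc25a38 does not stand for the carriers that fell. Each promoter shown is the 250 bases before the gene's start, in the direction of the gene, from RefSeq on GRCm38.p6. Capitals mark matches to the 5 motifs searched on both strands.
Slc25a30, chr14:75787038-75787287, minus strand: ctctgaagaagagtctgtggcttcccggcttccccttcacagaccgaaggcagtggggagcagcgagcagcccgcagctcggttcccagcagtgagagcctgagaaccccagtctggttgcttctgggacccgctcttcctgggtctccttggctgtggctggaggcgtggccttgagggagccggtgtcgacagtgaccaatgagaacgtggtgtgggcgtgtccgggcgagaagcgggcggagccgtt
Slc25a36, chr9:97111042-97111291, minus strand: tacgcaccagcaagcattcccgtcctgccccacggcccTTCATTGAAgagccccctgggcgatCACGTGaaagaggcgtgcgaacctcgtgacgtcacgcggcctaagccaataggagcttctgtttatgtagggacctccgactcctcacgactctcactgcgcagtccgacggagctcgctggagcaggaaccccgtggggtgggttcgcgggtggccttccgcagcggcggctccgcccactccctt
Slc25a4, chr8:46211063-46211312, minus strand: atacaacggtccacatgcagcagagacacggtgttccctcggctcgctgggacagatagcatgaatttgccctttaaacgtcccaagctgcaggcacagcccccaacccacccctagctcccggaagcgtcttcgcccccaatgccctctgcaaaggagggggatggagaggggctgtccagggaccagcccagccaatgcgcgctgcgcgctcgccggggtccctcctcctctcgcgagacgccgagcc
Slc25a39, chr11:102407518-102407767, minus strand: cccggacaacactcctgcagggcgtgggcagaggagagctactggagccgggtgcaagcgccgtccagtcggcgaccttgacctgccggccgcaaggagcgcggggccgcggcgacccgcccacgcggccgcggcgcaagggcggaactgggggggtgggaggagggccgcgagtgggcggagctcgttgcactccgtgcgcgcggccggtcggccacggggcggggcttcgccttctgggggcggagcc
Slc25a38, chr9:120110132-120110381, plus strand: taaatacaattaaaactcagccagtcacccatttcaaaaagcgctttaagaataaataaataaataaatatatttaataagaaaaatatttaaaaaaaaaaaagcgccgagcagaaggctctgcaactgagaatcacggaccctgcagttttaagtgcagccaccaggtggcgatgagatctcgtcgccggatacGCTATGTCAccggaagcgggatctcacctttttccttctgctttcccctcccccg
The GC content was 64.4% for Slc25a30 and Slc25a36, 64.8% for Slc25a4, 77.2% for Slc25a39 and 41.6% for Slc25a38, against a median of 57.4% over the 46 promoters of SLC25 members and 52.4% over all 32851 promoters of this length.

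The motifs were TGACNNNGC, the core of the antioxidant response element, TTCNNNGAA for STAT factors, GTAAACA for forkhead factors, the E-box CACGTG, and the core motif of nuclear respiratory factor 1. In Slc25a36, TTCNNNGAA began 212 bases and CACGTG 187 bases before the start, and in Slc25a38 TGACNNNGC lay on the reverse strand 55 bases before it. The promoters of Slc25a30, Slc25a4 and Slc25a39 held no match. Over the 36 members with a promoter entry, TGACNNNGC was found in 7 genes (9 of 46 promoters) and in 10.2% of all promoters. CACGTG was found in 7 member genes (8 of 46 promoters) and in 6.02% of all promoters, TTCNNNGAA in 2 and 7.02%, the nuclear respiratory factor 1 core in 2 and 4.98%, and GTAAACA in 0 and 3.17%. Slc25a15 is counted among the 7 genes with CACGTG, although its entry failed a check of its direction against the annotation. The 5 promoters shown passed that check, and no result of it is given for the other entries. A match is a description of the letters and not a site.

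Among the relatives of the uncoupling proteins, Slc25a30 (kidney mitochondrial carrier protein 1) was at 5.22, 8.82 and 6.84 CPM in vehicle libraries 1 to 3, at 14.9, 21.4 and 19.1 CPM in those of AdipoRon and at 25.7, 20.1 and 21.8 CPM in those of AdipoRonPEG5. Every treated library lay above every vehicle library, while the 2 treated groups overlapped. Slc25a30 rose 3.33-fold with AdipoRonPEG5 (log2 fold change 1.73 ± 0.19 (SE), edgeR BH-adjusted p = 0.000427). Its relatives Slc25a14 and Slc25a27, which occur mainly in brain, were not called, with log2 fold changes of -0.012 and -0.85 (edgeR BH-adjusted p of Slc25a27 0.129). Without AdipoRonPEG5 1 Slc25a27 was called lower (edgeR BH-adjusted p = 0.0346). Of 5 family genes under other names 3 were tested and 1 rose with AdipoRonPEG5, beside 9.55% of all tested genes. This was Ucp2, an uncoupling protein, which was at 20.9, 16.9 and 26.9 CPM in the vehicle libraries, 49.0, 29.8 and 32.2 CPM in those of AdipoRon and 62.3, 59.2 and 78.3 CPM in those of AdipoRonPEG5. Its AdipoRonPEG5 libraries lay above all others (log2 fold change against vehicle 1.63 ± 0.21 (SE), edgeR BH-adjusted p = 0.000759). Ucp1, the uncoupling protein of brown fat, was at 0 in all 9 libraries.

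In the adenine nucleotide group, the abundant ADP/ATP carrier Slc25a5 was at 486, 469 and 383 CPM in the vehicle libraries, 467, 410 and 468 CPM in those of AdipoRon and 477, 479 and 476 CPM in those of AdipoRonPEG5. The treated libraries all lay within the vehicle range, and its log2 fold change with AdipoRonPEG5 was 0.099 (95% interval -0.13 to 0.32, edgeR BH-adjusted p = 0.557). Its minor paralog Slc25a4, the form that dominates in heart and skeletal muscle, was at 3.88, 3.44 and 3.12 CPM in the vehicle libraries, 6.85, 4.50 and 6.49 CPM in those of AdipoRon and 5.98, 5.45 and 6.29 CPM in those of AdipoRonPEG5. All treated libraries were higher than all vehicle libraries, and Slc25a4 rose with AdipoRonPEG5 (log2 fold change 0.74 ± 0.18 (SE), edgeR BH-adjusted p = 0.0198). Of 4 skeletal muscle markers 3 were at 0 in all libraries and their sum reached at most 0.0747 CPM. Of 2 heart muscle markers Myh6 was at 0 and Tnnt2, with 57 counts in all, was at 0.0747 to 0.257 CPM in the vehicle libraries, 0.205 to 0.444 CPM in those of AdipoRon and 0.308 to 0.779 CPM in those of AdipoRonPEG5. Tnnt2 thus moved in the same direction as Slc25a4, and its part in that result was not tested. The call of Slc25a4 was lost without vehicle 2, without AdipoRonPEG5 1, without AdipoRonPEG5 3, or without vehicle 3 and AdipoRonPEG5 1 together (edgeR BH-adjusted p = 0.0501 to 0.0885).

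The ATP-Mg/phosphate carriers move adenine nucleotides in net amounts. Slc25a24 was at 0.540, 0.822 and 0.595 CPM in the vehicle libraries, 1.11, 1.33 and 0.683 CPM in those of AdipoRon and 1.36, 1.45 and 1.60 CPM in those of AdipoRonPEG5, from 168 counts in all. The AdipoRonPEG5 libraries lay above all others, and Slc25a24 rose against vehicle (log2 fold change 1.22 ± 0.32 (SE), edgeR BH-adjusted p = 0.0232). That call was lost without vehicle 1, without AdipoRonPEG5 2, without AdipoRonPEG5 3, or without vehicle 3 and AdipoRonPEG5 1 together (edgeR BH-adjusted p = 0.0657 to 0.109). The much more abundant Slc25a23, which carries the same substrates, was at 225, 220 and 235 CPM in the vehicle libraries, 204, 224 and 205 CPM in those of AdipoRon and 246, 260 and 274 CPM in those of AdipoRonPEG5. Its AdipoRonPEG5 libraries were the highest of all, but against vehicle it was not called (log2 fold change 0.20, edgeR BH-adjusted p = 0.106).

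Of 11 carriers of cofactors and nucleotides, 2 rose and 2 fell with AdipoRonPEG5, beside 9.55% and 7.63% of all tested genes. Slc25a36, a pyrimidine nucleotide carrier, was at 2.26, 1.72 and 1.56 CPM in the vehicle libraries, 4.44, 3.50 and 3.69 CPM in those of AdipoRon and 3.08, 3.27 and 3.14 CPM in those of AdipoRonPEG5. The 3 groups did not overlap, with AdipoRonPEG5 between the others, and Slc25a36 rose with AdipoRonPEG5 (log2 fold change 0.73 ± 0.20 (SE), edgeR BH-adjusted p = 0.0304). This call was lost without vehicle 2, vehicle 3 or any 1 of the AdipoRonPEG5 libraries, or without vehicle 3 and AdipoRonPEG5 1 together (edgeR BH-adjusted p = 0.0613 to 0.11). Of its transcripts' 50-base stretches, 6.7% also occur in the gene model Gm13217, so reads from the 2 could be mixed. Its paralog Slc25a33, which carries pyrimidine nucleotides as well, was at 10.8, 17.5 and 14.4 CPM in the vehicle libraries, 24.9, 20.6 and 18.4 CPM in those of AdipoRon and 19.7, 18.6 and 20.6 CPM in those of AdipoRonPEG5. Both treated groups lay above vehicle, but with AdipoRonPEG5 it was not called (log2 fold change 0.49 ± 0.17 (SE), edgeR BH-adjusted p = 0.0683). It was called under 5 of 19 alternatives, among them without vehicle 2 (lowest BH-adjusted p over the alternatives 0.0305).

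Slc25a39, which brings glutathione into mitochondria, was at 368, 375 and 411 CPM in the vehicle libraries, 352, 351 and 361 CPM in those of AdipoRon and 489.5, 487 and 571 CPM in those of AdipoRonPEG5. The AdipoRonPEG5 libraries stood above both other groups, and Slc25a39 rose 1.34-fold against vehicle (log2 fold change 0.42 ± 0.090 (SE), edgeR BH-adjusted p = 0.00955). Slc25a39 is also known for its part in heme synthesis. The summed level of 5 erythroid genes was 215 to 813 CPM in the vehicle libraries. It was 233 to 400 CPM in those of AdipoRon and 437.5 to 602 CPM in those of AdipoRonPEG5. Vehicle overlapped both treated groups, while AdipoRonPEG5 lay above AdipoRon, as it did for Slc25a39. The part of the erythroid sum in that result was not tested. Slc25a40, the paralog of Slc25a39 and also a glutathione carrier, was not called. It was at 4.19 ± 0.296 CPM in the vehicle libraries and 4.34 ± 0.747 CPM in those of AdipoRonPEG5 (SD, n = 3).

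Slc25a51, the NAD+ carrier of mitochondria, was at 153, 161 and 146 CPM in the vehicle libraries, 176, 117 and 131 CPM in those of AdipoRon and 88.2, 94.3 and 90.9 CPM in those of AdipoRonPEG5. Each AdipoRonPEG5 library was below every other library, and Slc25a51 fell (log2 fold change -0.75 ± 0.13 (SE), edgeR BH-adjusted p = 0.00317). Slc25a32, a carrier of FAD and folate, was at 21.5, 23.02 and 18.5 CPM in the vehicle libraries, 25.6, 16.6 and 21.5 CPM in those of AdipoRon and 9.87, 13.6 and 14.5 CPM in those of AdipoRonPEG5. It too was lowest in the 3 AdipoRonPEG5 libraries, and it fell against vehicle (log2 fold change -0.73 ± 0.18 (SE), edgeR BH-adjusted p = 0.0164). Without vehicle 2 or without AdipoRonPEG5 1 the call of Slc25a32 was lost (edgeR BH-adjusted p = 0.0529 to 0.0589). The other 7 tested members of the cofactor and nucleotide group, among them the coenzyme A carrier Slc25a42, were not called.

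Of 8 tested amino acid carriers 3 fell and 0 rose with AdipoRonPEG5, beside 7.63% lower and 9.55% higher over all tested genes. Their median log2 fold change was -0.32, and unadjusted p-values under 0.05, DESeq2 and limma-voom gave no rise either. Slc25a15, which exchanges ornithine for citrulline in the urea cycle, was at 327, 274 and 331 CPM in the vehicle libraries, 324, 305 and 286 CPM in those of AdipoRon and 198, 234 and 222 CPM in those of AdipoRonPEG5. The AdipoRonPEG5 libraries lay below both other groups, and Slc25a15 fell (log2 fold change -0.51 ± 0.10 (SE), edgeR BH-adjusted p = 0.0068). Slc25a13 (citrin), the aspartate/glutamate carrier that serves the same cycle, stood at 214 ± 32.3 CPM in the vehicle libraries and 213 ± 24.2 CPM in those of AdipoRonPEG5 (SD, n = 3), a log2 fold change of -0.0068 (95% interval -0.28 to 0.26).

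Slc25a38, a glycine carrier needed for heme synthesis, was at 30.2, 32.6 and 32.0 CPM in the vehicle libraries, 27.2, 29.3 and 25.4 CPM in those of AdipoRon and 25.7, 23.3 and 23.2 CPM in those of AdipoRonPEG5. Vehicle was above both treated groups, which overlapped, and the fall with AdipoRonPEG5 passed the test (log2 fold change -0.39 ± 0.082 (SE), edgeR BH-adjusted p = 0.00921). Slc25a44, a carrier of branched-chain amino acids, was at 76.7, 78.6 and 84.1 CPM in the vehicle libraries, 88.8, 75.7 and 69.5 CPM in those of AdipoRon and 52.7, 55.3 and 66.8 CPM in those of AdipoRonPEG5. The AdipoRonPEG5 libraries were lowest, and Slc25a44 fell (log2 fold change -0.45 ± 0.11 (SE), edgeR BH-adjusted p = 0.0173). Without AdipoRonPEG5 1, without AdipoRonPEG5 2, or without vehicle 3 and AdipoRonPEG5 1 together, that call was lost (edgeR BH-adjusted p = 0.0613 to 0.104). The glutamate carrier Slc25a18, with 114 counts in all, was at 0.861 ± 0.129 CPM in the vehicle libraries and 0.402 ± 0.0833 CPM in those of AdipoRonPEG5 (SD, n = 3). Its groups did not overlap, but it was not called (log2 fold change -1.03 ± 0.34 (SE), edgeR BH-adjusted p = 0.0573).

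Among carriers whose substrate is less settled, Slc25a47 was at 779, 751 and 673 CPM in the vehicle libraries, 597, 504 and 630 CPM in those of AdipoRon and 578, 574 and 552 CPM in those of AdipoRonPEG5. Both treated groups were below vehicle and overlapped each other. Slc25a47 fell with AdipoRonPEG5 (log2 fold change -0.37 ± 0.10 (SE), edgeR BH-adjusted p = 0.0305). The call was lost when libraries were scaled by their total alone, and without vehicle 1, vehicle 2 or any 1 AdipoRonPEG5 library (edgeR BH-adjusted p over all alternatives that lost it 0.0627 to 0.102).

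The di- and tricarboxylate carriers, which feed the exchange of citrate, malate and oxoglutarate, held 0 called members of 4 with AdipoRonPEG5 against vehicle. EdgeR called 17.2% of all tested genes in that comparison, so 0 of 4 does not set these carriers apart. DESeq2 and limma-voom called 0 of the 4 as well, and 0 had an unadjusted p under 0.05. Log2 fold changes of the 4 ran from -0.15 to 0.20. Slc25a1 was at 202, 204 and 221 CPM in the vehicle libraries, 236, 190 and 206 CPM in those of AdipoRon and 221, 233 and 267 CPM in those of AdipoRonPEG5. Slc25a10 was at 245, 210 and 172 CPM in the vehicle libraries, 172, 161 and 213 CPM in those of AdipoRon and 184, 186 and 193 CPM in those of AdipoRonPEG5. For both carriers the groups overlapped. The carnitine/acylcarnitine carrier Slc25a20, which admits fatty acids to oxidation, was at 149, 143 and 113 CPM in the vehicle libraries, 142, 126 and 152 CPM in those of AdipoRon and 166, 170 and 178 CPM in those of AdipoRonPEG5. Its AdipoRonPEG5 libraries were the highest of all, yet it just missed the threshold against vehicle (log2 fold change 0.34 ± 0.11 (SE), edgeR BH-adjusted p = 0.0508) and was called under 7 of 19 alternatives, among them without vehicle 1 or AdipoRon 2 (lowest BH-adjusted p over the alternatives 0.0287). The iron importers were not called, at log2 fold changes of -0.045 and 0.12.

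**Figure D2:**
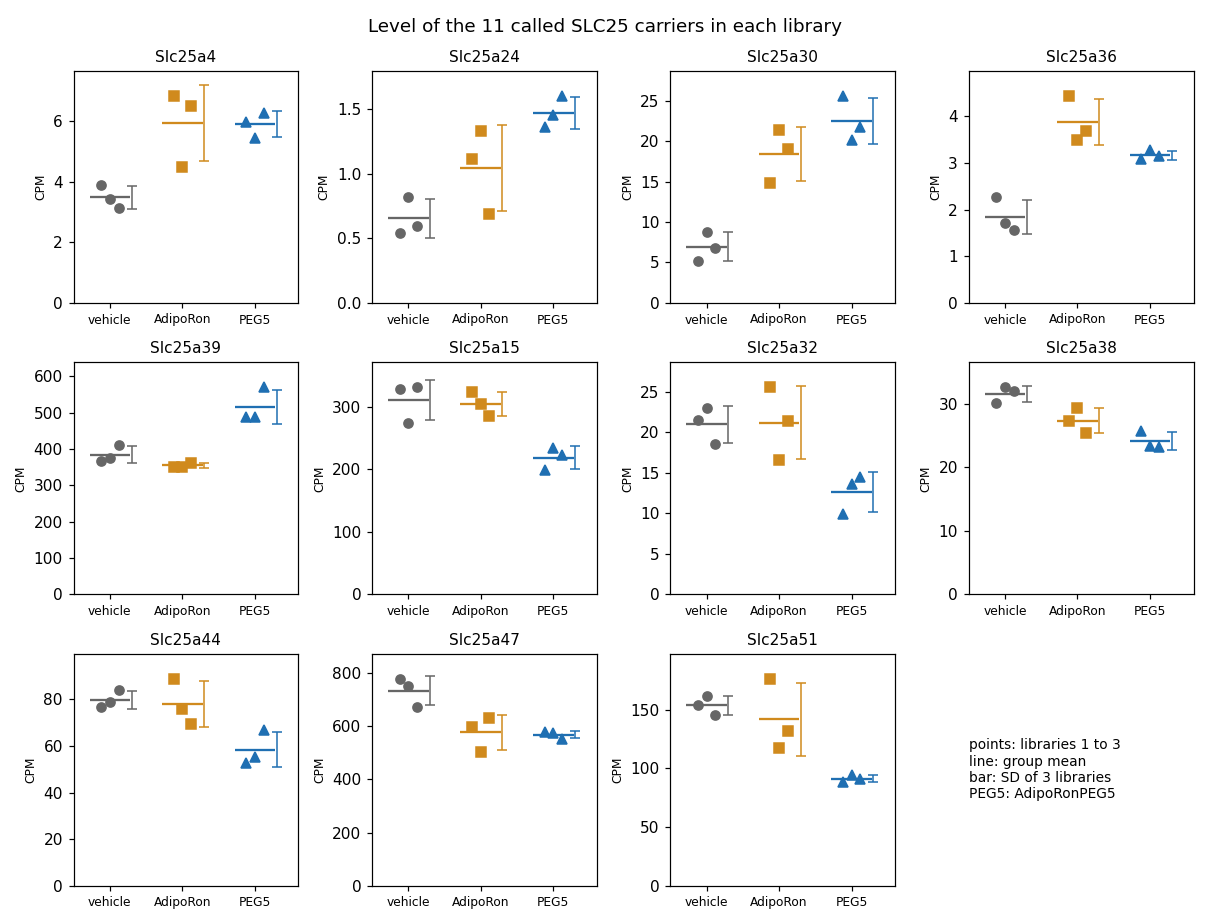
CPM of the 11 SLC25 carriers called in at least 1 comparison, on linear axes from 0, with 1 point per library, a line at the group mean and a bar for the SD of 3 libraries. The upper row and Slc25a39 hold the carriers that rose with AdipoRonPEG5, the others those that fell, and AdipoRon stands with AdipoRonPEG5 for Slc25a30, Slc25a4 and Slc25a47 and near vehicle for Slc25a15 and Slc25a32.

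With AdipoRon against vehicle, 3 of the 42 tested members rose and 0 fell, which is 7.14% of them, beside 684 of all 13151 tested genes (5.2%, with 3.8% higher and 1.4% lower). At an unadjusted p under 0.05, 6 members were higher and 2 lower, and no share of all genes was taken at that threshold. DESeq2 called 4 members higher and 1 lower, limma-voom 3 and 0. Over all genes DESeq2 called 1016 and limma-voom 736. The members' median log2 fold change was 0.0074. This comparison uses the same vehicle libraries as the one above, so the sets of calls are not independent.

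Slc25a30 rose 2.72-fold with AdipoRon (log2 fold change 1.45 ± 0.20 (SE), edgeR BH-adjusted p = 0.00364). Slc25a36 rose 2.03-fold (log2 fold change 1.02 ± 0.20 (SE), edgeR BH-adjusted p = 0.0177) and Slc25a4 rose 1.68-fold (log2 fold change 0.75 ± 0.19 (SE), edgeR BH-adjusted p = 0.0443). The AdipoRon libraries of these carriers, given above, all lay above the vehicle libraries. The call of Slc25a36 was lost in a fit of the 2 groups alone, without vehicle 2, without AdipoRon 1, or without vehicle 3 and AdipoRonPEG5 1 together (edgeR BH-adjusted p = 0.0519 to 0.0658). Slc25a4 held in only 7 of 19 alternatives: its call was lost with limma-voom, in a fit of the 2 groups alone, without any 1 library other than AdipoRon 2, and without vehicle 3 and AdipoRonPEG5 1 together (edgeR or limma-voom BH-adjusted p over all alternatives that lost it 0.0573 to 0.14).

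The uncalled members with the lowest p were Slc25a33 (log2 fold change 0.60 ± 0.17 (SE), edgeR BH-adjusted p = 0.0619) and Slc25a47 (log2 fold change -0.35 ± 0.10 (SE), edgeR BH-adjusted p = 0.0747). Slc25a33 was called under 5 of 19 alternatives, among them without vehicle 2 (lowest BH-adjusted p over the alternatives 0.0186), and Slc25a47 under 2, with DESeq2 and without vehicle 3 (likewise 0.0113). For both, the AdipoRon and vehicle libraries did not overlap. The carriers that fell with AdipoRonPEG5 and had AdipoRon libraries overlapping vehicle were Slc25a15, Slc25a32, Slc25a44 and Slc25a51, with AdipoRon log2 fold changes of -0.029, 0.0099, -0.032 and -0.12. Slc25a24 (log2 fold change 0.74 ± 0.33 (SE), edgeR BH-adjusted p = 0.217) and Slc25a38 (-0.21 ± 0.082 (SE), edgeR BH-adjusted p = 0.171) were not called either.

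The compounds, which differ by the polyethylene glycol carried by AdipoRonPEG5, were compared at the same label dose and time in 1 pair. Of the 42 tested members 1 was higher and 3 were lower with AdipoRonPEG5 than with AdipoRon, which is 9.52%, beside 709 of all 13151 tested genes (5.39%, with 2.68% higher and 2.71% lower). Slc25a39 was 1.45-fold higher (log2 difference 0.54, 95% interval 0.34 to 0.74, edgeR BH-adjusted p = 0.00932). Slc25a51 (log2 difference -0.64, 95% interval -0.92 to -0.36, edgeR BH-adjusted p = 0.0201), Slc25a15 (-0.48, -0.70 to -0.26, edgeR BH-adjusted p = 0.0228) and Slc25a32 (-0.74, -1.13 to -0.35, edgeR BH-adjusted p = 0.037) were lower.

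The calls of Slc25a51, Slc25a15 and Slc25a32 between the compounds were each lost without any 1 of the AdipoRonPEG5 libraries. Slc25a51 was lost also without vehicle 3 and AdipoRonPEG5 1 together (edgeR BH-adjusted p over all alternatives that lost it 0.0506 to 0.0675). Slc25a15 was lost also without AdipoRon 1 or AdipoRon 2 (likewise 0.0571 to 0.0818). Slc25a32 was lost also without vehicle 2, AdipoRon 1 or AdipoRon 3, and without vehicle 3 and AdipoRonPEG5 1 together (likewise 0.0539 to 0.11). Slc25a23, higher with AdipoRonPEG5 by 0.30 ± 0.078 (SE), and Slc25a44, lower by 0.42 (log2 difference -0.42 ± 0.11 (SE)), both just missed the threshold (edgeR BH-adjusted p = 0.0502). Slc25a23 was called under 5 of 19 alternatives, among them without vehicle 3 (lowest BH-adjusted p over the alternatives 0.00746), and Slc25a44 under 7, among them without vehicle 3 or AdipoRonPEG5 3 (likewise 0.0197).

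For the carriers that rose with both compounds the difference between the compounds was not called. It was 0.29 for Slc25a30 (log2, 95% interval -0.11 to 0.69), -0.29 for Slc25a36 (-0.71 to 0.13) and -0.0065 for Slc25a4 (-0.40 to 0.39). For Slc25a24 it was 0.48 (-0.18 to 1.14), for Slc25a38 -0.18 (-0.37 to -0.00080) and for Slc25a47 -0.024 (-0.25 to 0.20). These intervals leave room for differences in either direction for Slc25a30, Slc25a36, Slc25a4, Slc25a24 and Slc25a47.

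**Figure D3:**
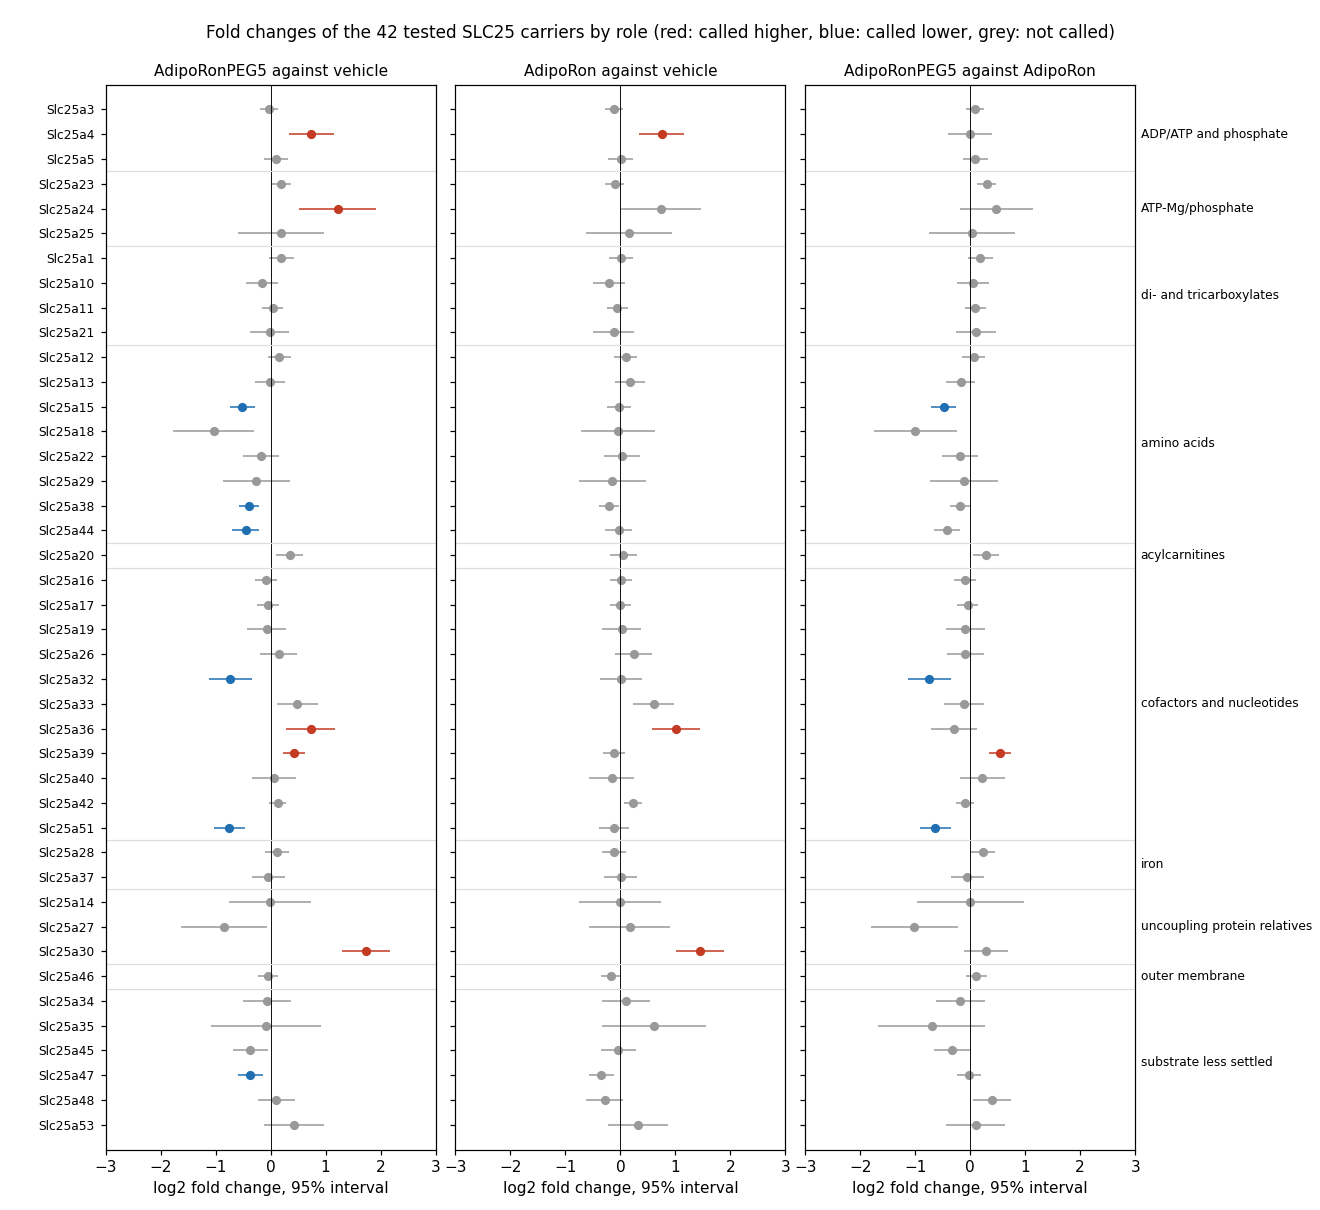
Log2 fold change with its 95% interval for the 42 tested SLC25 carriers, grouped by the substrate they carry, for each compound against vehicle and for AdipoRonPEG5 against AdipoRon; red marks carriers called higher, blue those called lower. The calls number 11, 3 and 4 in the 3 panels, and Slc25a30 lies farthest to the right in the first and second.

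Partner enzymes of the carriers were read from a list of 42, of which 41 were tested. With AdipoRonPEG5 against vehicle 2 rose and 10 fell, beside 9.55% and 7.63% of all tested genes. The urea cycle part of that list held 4 called lower of 7. Otc, the matrix enzyme that makes the citrulline which Slc25a15 exports, fell (log2 fold change -0.55 ± 0.091 (SE), edgeR BH-adjusted p = 0.00277). Cps1, which makes carbamoyl phosphate in the matrix, Asl and Arg1, both cytosolic steps, also fell, at log2 fold changes of -0.47, -0.45 and -0.33 (edgeR BH-adjusted p = 0.0201, 0.0182 and 0.0188); these 3 were chosen after their values were seen. Their calls were each lost without vehicle 2 and without AdipoRonPEG5 1, those of Cps1 and Arg1 also without AdipoRonPEG5 2 or without vehicle 3 and AdipoRonPEG5 1 together, and that of Arg1 also without AdipoRonPEG5 3 or with total scaling. Over all alternatives that lost them, edgeR BH-adjusted p was 0.0528 to 0.0831 for Cps1, 0.0689 to 0.0745 for Asl and 0.0533 to 0.0687 for Arg1. Ass1, Oat and Nags were not called, at -0.34, 0.13 and 0.19. With AdipoRon 0 of the 41 partner enzymes were called with edgeR, DESeq2 or limma-voom, while 2 were higher and 7 lower at an unadjusted p under 0.05; over all tested genes 5.2% were called. Between the compounds 2 of them were higher and 7 lower with AdipoRonPEG5, beside 2.68% and 2.71% of all tested genes.

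**Figure D4:**
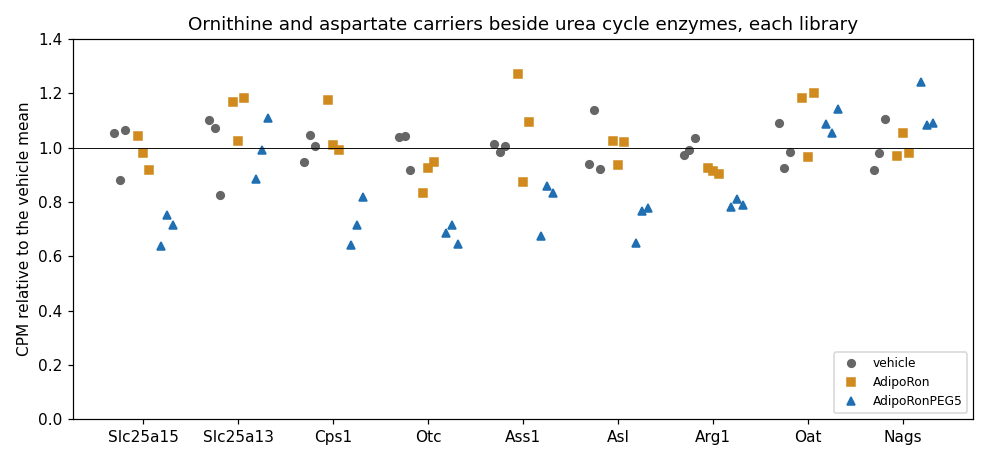
CPM of the ornithine/citrulline carrier Slc25a15, the aspartate/glutamate carrier Slc25a13 and 7 urea cycle genes in each library, divided by the gene's vehicle mean (linear axis from 0, line at the vehicle mean). The AdipoRonPEG5 libraries of Slc25a15 lie at 0.638, 0.754 and 0.714 and those of Otc at 0.686, 0.716 and 0.647, while those of Slc25a13 spread around the vehicle mean.

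Outside the urea cycle, Mat1a, which makes S-adenosylmethionine, fell with AdipoRonPEG5 (log2 fold change -0.67 ± 0.13 (SE), edgeR BH-adjusted p = 0.00738), as did the liver glutaminase Gls2 (-0.45 ± 0.093 (SE), edgeR BH-adjusted p = 0.00853). Slc25a26, the carrier that brings S-adenosylmethionine into the matrix, was at 8.04 ± 0.189 CPM in the vehicle libraries and 8.92 ± 1.28 CPM in those of AdipoRonPEG5 (SD, n = 3) and was not called.

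Of 20 tested mitochondrial transporters and channels outside the family, 2 rose and 2 fell with AdipoRonPEG5, a share near the 17.2% called over all tested genes. Micu2, a gatekeeper of the calcium uniporter, rose (log2 fold change 0.72 ± 0.11 (SE), edgeR BH-adjusted p = 0.00212), as did Tspo of the outer membrane (0.38 ± 0.076 (SE), edgeR BH-adjusted p = 0.00702), and the sideroflexin Sfxn2 fell (-0.43 ± 0.074 (SE), edgeR BH-adjusted p = 0.00331). Of 15 tested genes that import carriers into the inner membrane 2 fell with AdipoRonPEG5, beside 7.63% of all tested genes: Tomm40, the pore of the outer membrane (-0.38 ± 0.079 (SE), edgeR BH-adjusted p = 0.00806), and Timm10, a chaperone of the intermembrane space (-0.47 ± 0.12 (SE), edgeR BH-adjusted p = 0.0197). The call of Timm10 was lost with total scaling and without vehicle 1, vehicle 2, AdipoRonPEG5 1 or AdipoRonPEG5 3 (edgeR BH-adjusted p = 0.0542 to 0.0728). Fold changes of the 15 ran from -0.58 to -0.011 (log2). With AdipoRon 2 of the 15 fell, beside 1.4% of all tested genes. They were Tomm22 and Tomm7 (edgeR BH-adjusted p = 0.0395 and 0.0482), named after their values were seen. Tomm40 and Timm10 were not called with AdipoRon (edgeR BH-adjusted p = 0.0657 and 0.102), nor Tomm22 and Tomm7 with AdipoRonPEG5 (0.33 and 0.484). Of the 20 transporters and channels edgeR called 0 with AdipoRon, beside 5.2% of all tested genes. Limma-voom called 0, DESeq2 1, and 2 had an unadjusted p under 0.05.

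Of 18 genes of mitochondrial content and biogenesis 0 were called with AdipoRonPEG5 by edgeR, beside 17.2% of all tested genes. DESeq2 and limma-voom called 0 of the 18 as well, and 2 were lower at an unadjusted p under 0.05. Of the 13 protein genes of the mitochondrial genome 2 were called, beside 17.2% of all tested genes: 1 rose, mt-Nd1 (log2 fold change 0.53 ± 0.10 (SE), edgeR BH-adjusted p = 0.00551), and 1 fell, mt-Nd3 (-0.39, edgeR BH-adjusted p = 0.0297). The call of mt-Nd3 was lost under 8 of 19 alternatives, among them total scaling and fits without vehicle 1, vehicle 3 or any 1 AdipoRonPEG5 library (edgeR BH-adjusted p over the 8 of 0.0502 to 0.163).

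Scaling by the library total alone moved the median log2 fold change of all genes to 0.081 with AdipoRonPEG5 and 0.104 with AdipoRon, from -0.0013 and 0.0057. The share of calls that were higher then went from 55.6% to 74.4% and from 73.1% to 93.2%. Of the members, 8 were higher and 5 lower with AdipoRonPEG5, and 5 were higher and 0 lower with AdipoRon.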

How the data were processed

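Liver RNA of 9 libraries was read from 1 table with a count and an FPKM column per library. Counts are raw read counts per gene, per the file headers, and served for every test. The deposited FPKM values were computed by the authors and served only to recover gene lengths, whole within 0.01 for 99.995% of values. The submitters' processing notes list, without saying what each did, STAR 2.5, TopHat, HTSeq 0.6.1, DESeq2 and edgeR. The genome build, the annotation, the strandedness of counting and the filters on reads are not given in the sources used.

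The test was edgeR 4.0.16 under R 4.3.3: 1 quasi-likelihood fit of all 9 libraries with 3 group means (TMM, filterByExpr, robust set to FALSE), which kept 13151 genes, with Benjamini-Hochberg adjustment over all of them at 0.05. The script was tested on simulated data. Alternatives were RLE size factors, library total alone, no filter, a mean of at least 1 CPM, DESeq2 1.42.0, limma-voom (limma 3.58.1), only the 2 groups compared, a replicate block, each library left out, vehicle 3 and AdipoRonPEG5 1 both left out, and vehicle 1 thinned. Errors are SD of 3 libraries or SE of the fit, and intervals are at 95%.

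Members called in any comparison and the 6 highest per length in vehicle were named with every library, and the 2 uncalled members with the lowest p in each comparison were named too. From each other list at most 3 called genes were named, by lowest p. Any further gene is marked as chosen after its values were seen, or stands as a paralog or partner of a named carrier. Members and lists were chosen with earlier results of these data known. Promoters came from RefSeq (GRCm38.p6), with entries for 36 members.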

Additional observations from a re-analysis of the deposited data

How the results depend on the processing

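No result changed its direction in a called value under the 19 alternatives. Among the 42 tested members and the other named genes in the 3 comparisons, 3273 values kept their side of the threshold, 58 crossed into a call and 143 lost one. With library totals alone 8 members were higher with AdipoRonPEG5 and 5 with AdipoRon. In fits of the 2 groups alone 1 member was higher with AdipoRon, and 325 of all genes were called. DESeq2 called 1 member lower with AdipoRon. Between the compounds 2 members were higher with DESeq2, limma-voom or a mean of at least 1 CPM. Without vehicle 3 and AdipoRonPEG5 1 together, 2 members were higher with AdipoRonPEG5, 1 with AdipoRon and 2 between the compounds.

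Leaving out each library in turn gave 2 to 6 members higher and 4 to 7 lower with AdipoRonPEG5, 1 to 3 higher and 0 to 1 lower with AdipoRon, and 1 to 3 higher and 0 to 4 lower between the compounds. Over all genes it gave 1337 to 2334, 250 to 624 and 233 to 1032 calls.

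Replicate numbers gave no sign of pairing these libraries over all tested genes. Deviations of same-numbered libraries correlated at -0.268 to 0.0772, and not every library correlated best with its own number. With 3 libraries a group, a pairing that touches some genes could go unseen. A replicate block gave 444 calls over all genes with AdipoRon and 338 between the compounds, and 1 member lower between the compounds. It lost the calls of Slc25a47, Cps1, Arg1 and mt-Nd3 with AdipoRonPEG5, of Slc25a4 with AdipoRon, and of Slc25a15 and Slc25a32 between the compounds.

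With 3 libraries a group, members of few counts, such as Slc25a24, carry wide intervals.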

Other observations

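Slc25a25, an ATP-Mg/phosphate carrier singled out after its values were seen, varied most among the abundant carriers. It was at 82.7, 185 and 202 CPM in vehicle, 123, 223 and 176 CPM in AdipoRon, and 102, 214 and 220 CPM in AdipoRonPEG5 libraries. Library 1 was the lowest in each group, and the coefficient of variation was 41.2%, 28.6% and 37.4%. The phosphate carrier Slc25a3, at 335 ± 10.5 CPM in vehicle (SD, n = 3), had a coefficient of variation of 1.3% to 3.1% in the same groups.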
